A study of Rattus norvegicus with 6 samples.

Results

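Genes of the integrated stress response and of the cytosolic tRNA synthetases were examined in CD163+ macrophages of the control and the ischemic rat brain. The set held 34 genes chosen by name, 15 of the stress response and 19 synthetases, out of the 14217 genes that at least 1 probe set of the array named alone. Macrophages were sorted by flow cytometry as CD11b+CD163+ cells from the right hemisphere of adult male Sprague-Dawley rats. Cells with these markers are mainly perivascular and meningeal macrophages, also called border-associated macrophages (BAMs), but the sort carried no marker of where a cell came from. The control group was rats 63, 68 and 69, without ischemia (n = 3). The ischemia group was rats 64, 65 and 66, in which the right middle cerebral artery was occluded for 1 h and reperfused for 16 h (n = 3). Each rat gave 1 array, no cells were pooled across rats, and the rats were the replicates. Values are log2 signals after RMA, so a difference of 1 is a 2-fold change. All 34 genes were on the array and all 34 were tested among 9928 genes with a signal above 7.16 on at least 3 arrays. Genes are said to have risen or fallen where the adjusted p of limma was under 0.01.

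The integrated stress response is a shared answer of cells to a lack of amino acids, misfolded protein in the endoplasmic reticulum, viral RNA or a lack of heme. A kinase for each kind of stress phosphorylates the initiation factor eIF2, which slows general translation while a few mRNAs, among them that of the transcription factor ATF4, are translated more. ATF4 then switches on genes that make and import amino acids, charge tRNAs and, when stress lasts, lead to cell death. Aminoacyl-tRNA synthetases join each amino acid to its tRNA before translation, and those of the cytosol are encoded apart from most of those of mitochondria. ATF4 is regulated largely at translation, so the level of its mRNA on an array is not a measure of the protein.

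Promoter sequences were searched for the letters of the element that dimers of ATF4 and C/EBP proteins bind. The RefSeq promoters of build GRCr8 covered 31 of the 34 genes, without Eif4ebp1, Rars1 and Gars1, each from 250 bases before the start to 50 after it. Both strands were searched for TGATGNAA, which reads TTNCATCA on the other strand; no other motif was searched. It was found in 10 of the 31 promoters (32.3%), in 7 of 17 synthetases (41.2%) and in 3 of 14 stress response genes (21.4%). Among all 33469 promoters of the table the share was 3.98%, and among the promoters of 8354 genes tested on the array it was 1.88%. The windows below show 20 bases on either side, 5′ to 3′ on the strand of the gene, with the match in capitals. They are the 4 synthetases with a match that changed most, and Chac1 and Trib3 of the stress response, of which Chac1 rose and Trib3 did not pass the test.
Yars1 (chr5:146820181-146820212, plus strand): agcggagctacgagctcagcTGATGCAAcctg
Tars1 (chr2:62114802-62114849, minus strand): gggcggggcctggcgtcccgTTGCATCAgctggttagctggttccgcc
Nars1 (chr18:60275769-60275816, minus strand): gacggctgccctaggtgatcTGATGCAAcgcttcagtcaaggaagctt
Iars1 (chr17:15193649-15193696, minus strand): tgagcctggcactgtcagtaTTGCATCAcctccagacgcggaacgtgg
Chac1 (chr3:126795944-126795991, plus strand): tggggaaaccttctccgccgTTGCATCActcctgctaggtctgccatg
Trib3 (chr3:161275527-161275574, minus strand): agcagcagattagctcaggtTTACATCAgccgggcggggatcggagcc
Counted from the start site, the first base of the match lay at 38 in Yars1, at -27 in Tars1, at -14 in Nars1, at -24 in Iars1, at -167 in Chac1 and at -21 in Trib3. The Yars1 window is shorter because the match lies near the end of the promoter. Matches were also found in Mars1, Cars1, Nupr1 and, at 2 places, Aars1. The 7 synthetases with a match differed between ischemia and control by 0.53 to 1.66 on the log2 scale with a median of 1.08, and the 10 without a match by 0.22 to 1.95 with a median of 1.03. The ranges overlapped, and a match describes letters in the window, not binding.

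Some features of the arrays bear on every result. Array medians lay between 7.82 and 7.90 and the BAM markers were high in both groups, with a mean over 7 markers of 13.11 to 14.11 in controls and 12.98 to 13.71 after ischemia, and none of them passed the limma test (at an unadjusted p under 0.05, 0 were higher and 4 lower). Control rat 63 stood apart: its highest signal was 13.85 and those of the other arrays 14.88 to 14.96, and its mean over 5 endothelial markers was 10.11 where the others had 7.61 to 8.33. The mean over 6 monocyte markers ranged from 9.41 to 10.10 in controls and from 12.36 to 13.13 in ischemic rats. Of the 6, 4 rose (Vcan, Fn1, Ly6c and Plac8). Ccr2 (0.43, adjusted p = 0.311) and F13a1 (-0.77, adjusted p = 0.136) overlapped between groups and did not pass the limma test. Of granulocyte markers 2 of 5 tested rose, S100a8 and Lcn2, and the mean of 6 was 6.55 to 6.80 and 7.83 to 8.65, where 28 genes of other tissues had a 90th percentile of 7.93. These 28 genes include Ttr, at 11.70 ± 2.54 (SD, n = 3) in controls and 12.42 ± 0.67 after ischemia. Its high values lift this percentile, so 7.93 is not a strict background level. Vcan, S100a8 and Lcn2 were tested through their ischemic values alone, as their controls were below the low-signal filter of 7.16. In 5 of 5 oligodendrocyte markers all ischemic rats were below all controls, of which Mbp and Mobp fell, and the list mean spanned 9.56 to 10.83 in control rats and 8.37 to 9.06 in ischemic rats. Of microglial markers P2ry12 fell (-1.78), 1 of 4 tested, and the mean of 5 was 9.43 to 9.73 and 8.47 to 9.33. The others tested did not pass and went different ways. All ischemic rats were below all controls in Gpr34 (-1.71) and above them in Tmem119 (0.61), and the groups overlapped in Sall1 (-0.13). Of 5 astrocyte markers Gfap rose (2.07, adjusted p = 0.00563), and their mean was 8.12 to 9.83 and 8.86 to 9.09. Beside these marker counts, 16.8% of all genes tested rose and 5.99% fell. All ischemic rats were above all controls in 35.7% of them and below in 19.9%. The call for Mobp was lost without control rat 63 or 68 or ischemic rat 65, and that for Gfap without control rat 68 or 69 or ischemic rat 65 or 66. That for Mobp was also lost with the mean of its probe sets (-1.35, adjusted p = 0.025). That for Gfap was also lost with no low-signal filter, ribosomal centring, repeated quantile normalization or robust moderation (adjusted p = 0.0117 to 0.0128). The difference between 3′ and 5′ probe sets of actin lay between 0.058 and 0.073 in controls and between 0.17 and 0.24 in ischemic rats. The part of these differences in the results was not tested, and in RNA of sorted cells a change in which cells were sorted and a change in RNA per cell cannot be told apart.

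Cytosolic tRNA synthetases rose together after ischemia. Of the 19 genes, 17 rose and 0 fell in the limma test (18 and 0 at an unadjusted p under 0.05), while 16.8% of all genes tested rose and 5.99% fell. In 19 of 19 genes every ischemic rat was above every control rat, which was so for 35.7% of all genes. The median difference was 1.06 on the log2 scale, against 0.10 over all genes tested, and single genes ranged from 0.22 to 1.95. The 2 genes that did not pass the test were Qars1 and Cars1.

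**Figure D1:**
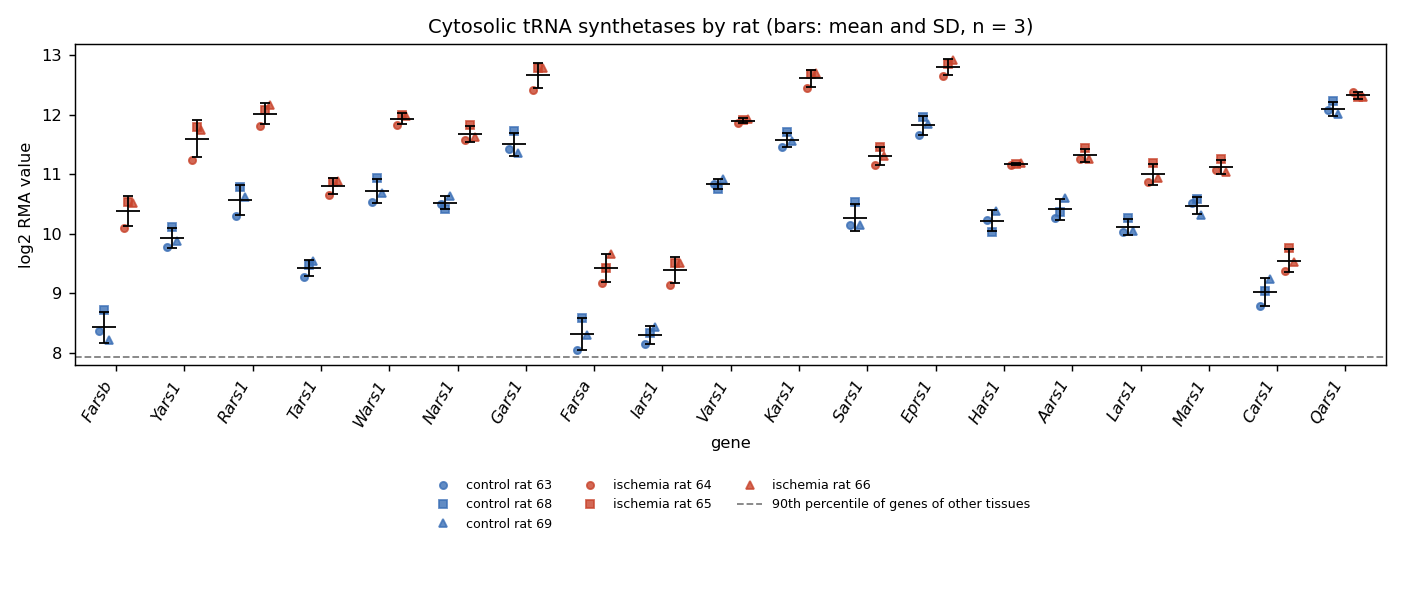
Log2 RMA value of the 19 cytosolic tRNA synthetase genes in each rat (blue, control rats 63, 68 and 69; red, ischemic rats 64, 65 and 66), ordered from the largest to the smallest difference, with horizontal bars for group means and vertical bars for the SD (n = 3). The red points lie above the blue ones in all 19 genes, with the widest gap in Farsb and the narrowest in Qars1, and the dashed line marks 7.93, the 90th percentile of 28 genes of other tissues.

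Farsb, the beta subunit of phenylalanyl-tRNA synthetase, showed the largest difference, with the probe set used. Its values were 8.36, 8.72 and 8.21 in control rats 63, 68 and 69, and 10.09, 10.54 and 10.51 in ischemic rats 64, 65 and 66. All ischemic rats were thus more than 1 log2 unit above all controls, and the change was 1.95 ± 0.19 (SE), 3.86-fold, with adjusted p = 0.000418. Yars1, the tyrosyl-tRNA synthetase, had values of 9.78, 10.12 and 9.89 in controls and of 11.23, 11.80 and 11.74 after ischemia. Its change of 1.66 ± 0.18 (adjusted p = 0.000636) was 3.17-fold, and the lowest ischemic rat stood clear of the highest control.

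Rars1, the arginyl-tRNA synthetase, measured 10.30, 10.79 and 10.62 in controls and 11.81, 12.07 and 12.16 after ischemia, a change of 1.45 ± 0.17 (adjusted p = 0.000781). Tars1, the threonyl-tRNA synthetase, measured 9.27, 9.47 and 9.54 and then 10.65, 10.87 and 10.88, a change of 1.38 ± 0.14 (adjusted p = 0.000467). In both genes ischemic rat 64 was the lowest of its group and still about 1 log2 unit above the highest control. Wars1, the tryptophanyl-tRNA synthetase, which is also known as an interferon-inducible gene, measured 10.53, 10.93 and 10.68 in controls and 11.82, 11.98 and 11.98 after ischemia, a change of 1.21 ± 0.14 (adjusted p = 0.000847).

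The other 12 synthetases that rose did so by 0.65 to 1.16 on the log2 scale. They charge asparagine (Nars1, 1.16 ± 0.13), glycine (Gars1, 1.16 ± 0.16), phenylalanine (Farsa, the alpha subunit, 1.11 ± 0.18), isoleucine (Iars1, 1.08 ± 0.16), valine (Vars1, 1.06 ± 0.12), lysine (Kars1, 1.04 ± 0.14), serine (Sars1, 1.03 ± 0.16), glutamate and proline (Eprs1, 0.98 ± 0.14), histidine (Hars1, 0.96 ± 0.13), alanine (Aars1, 0.90 ± 0.14), leucine (Lars1, 0.89 ± 0.14) and methionine (Mars1, 0.65 ± 0.13). Their adjusted p ranged from 0.000677 in Vars1 to 0.00669 in Mars1. The call for Mars1 was lost whichever rat was left out (adjusted p = 0.012 to 0.038) and with repeated quantile normalization (0.0212). Differences between neighbours in this order were smaller than their errors, apart from the step down to Mars1.

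Qars1 and Cars1 lay at the low end. Qars1, the glutaminyl-tRNA synthetase, had values of 12.07, 12.23 and 12.001 in controls and of 12.38, 12.29 and 12.29 after ischemia. The groups did not overlap, but the gap was narrow and the difference of 0.22 ± 0.12 did not pass the test (adjusted p = 0.185). Cars1, the cysteinyl-tRNA synthetase, had values of 8.78, 9.04 and 9.24 in controls and of 9.37, 9.75 and 9.53 after ischemia. Its difference of 0.53 ± 0.17 missed the threshold as well (adjusted p = 0.0347).

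The synthetases moved as a block within each rat. Taken as the median over the 19 genes of the deviation from the control mean, control rats 63, 68 and 69 stood at -0.12, 0.13 and -0.0058, and ischemic rats 64, 65 and 66 at 0.88, 1.12 and 1.11. Over all genes tested the same medians were -0.11, 0.084 and 0.025 in controls and 0.13, 0.093 and 0.087 after ischemia. Rat 64 was the lowest ischemic rat in 17 of the 19 genes and rat 63 the lowest control in 11. The synthetases were also evenly measured within groups, with a median SD of 0.17 in controls and 0.14 after ischemia, against 0.19 and 0.15 over all genes.

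Synthetases can be divided by the company they keep and by their fold. Of the 7 in the set that belong to the multisynthetase complex, a cytosolic assembly of several synthetases (Eprs1, Iars1, Kars1, Lars1, Mars1, Qars1 and Rars1), 6 rose, with a median of 0.98. Of the 12 outside it 11 rose, with a median of 1.14. Synthetases also fall into 2 unrelated folds. Of the 10 counted in class I 8 rose, with a median of 1.02 and a range of 0.22 to 1.66, and of the 9 in class II 9 rose, with a median of 1.11 and a range of 0.90 to 1.95. Eprs1, whose protein joins a class I and a class II enzyme, was counted in class I. Of all genes tested 16.8% rose. The ranges overlapped in both divisions, and the differences between the groupings were not tested.

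The scaffold proteins of the multisynthetase complex rose with it. Aimp2 rose by 1.46 ± 0.16 (adjusted p = 0.000668), Eef1e1, known as AIMP3, by 1.36 ± 0.14 (adjusted p = 0.000499) and Aimp1 by 0.91 ± 0.14 (adjusted p = 0.00205). Thus 3 of 3 scaffold genes rose, where 16.8% of all genes tested did.

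Mitochondrial synthetases, which charge tRNAs for the proteins encoded in mitochondrial DNA, showed smaller differences. Of 17 listed, 13 were on the array and tested, of which 2 rose and 0 fell (3 and 1 at an unadjusted p under 0.05), and the median over the 13 was 0.079. These are near the 16.8% that rose and the median of 0.10 over all genes tested. Rars2 rose by 1.35 ± 0.13 (adjusted p = 4e-04) and Yars2 by 0.92 ± 0.12 (adjusted p = 0.00127). Tars2, at 10.39 ± 0.12 (SD, n = 3) in controls and 10.45 ± 0.12 after ischemia, and Wars2, at 10.52 ± 0.11 and 10.03 ± 0.19, did not pass the test (adjusted p = 0.731 and 0.0284). Every one of the 13 mitochondrial genes could be set beside its cytosolic counterpart. With the probe sets used, the difference between ischemia and control was greater for the cytosolic gene in 13 of 13 pairs. The gap ran from 0.098 for the arginine pair, in which both genes rose, to 1.70 for the tryptophan pair. Gars1 and Kars1 have no mitochondrial counterpart, as each encodes both forms, and Qars1, the synthetase of smallest difference, was in no pair either. The count of pairs depended on the probe set. Another probe set of Farsb (-0.014), Vars1 (-0.26), Eprs1 (-0.25) or Cars1 (0.077) was below the mitochondrial gene (0.54, 0.099, -0.12 and 0.079). The difference between the cytosolic and the mitochondrial set was not tested.

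**Figure D2:**
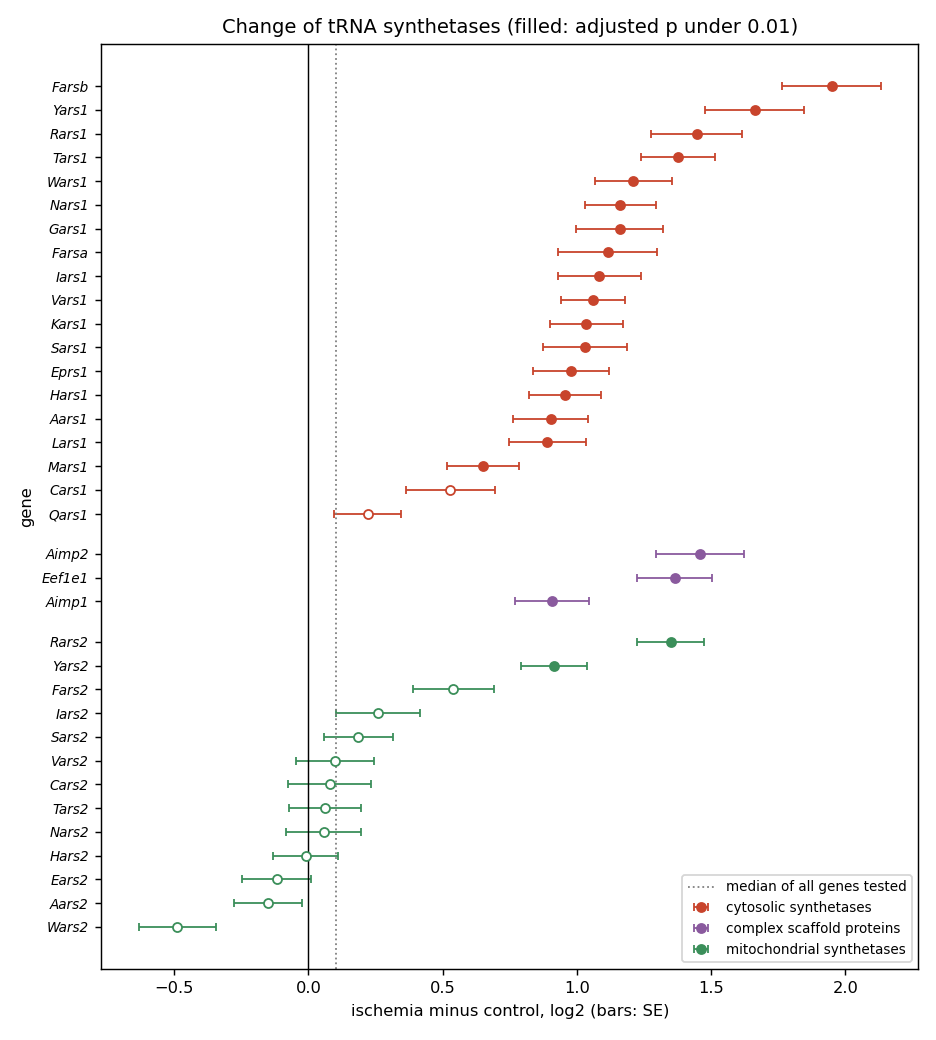
Difference between ischemia and control in log2 units (points) with its SE (bars) for cytosolic synthetases (red), scaffold proteins of the multisynthetase complex (purple) and mitochondrial synthetases (green), with filled points where adjusted p was under 0.01. Cytosolic genes lie between 0.22 and 1.95 and 17 of 19 are filled, whereas 2 of 13 mitochondrial genes are filled and most lie near the dotted line at 0.10, the median of all genes tested.

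Several probe sets were available for 11 synthetases, and they were compared in a fit over 14083 probe sets of a single gene. Of the 15 further probe sets 8 rose and 0 fell, where 15% of all these probe sets rose and 6.06% fell. In 9 of the 15 the groups separated upward and in 1 downward. The second probe set of Wars1 rose by 1.40 ± 0.15, that of Gars1 by 1.26 ± 0.16, that of Hars1 by 1.24 ± 0.25 and that of Iars1 by 1.42 ± 0.16. Farsb, Vars1, Eprs1, Lars1 and Kars1 gave different answers by probe set. The second probe set of Kars1 separated the groups upward but did not pass the limma test (0.51 ± 0.15, adjusted p = 0.0299). The second probe set of Farsb gave 9.15 ± 0.36 in control rats and 9.13 ± 0.11 in ischemic rats, a difference of -0.014 ± 0.19 (adjusted p = 0.961), and that of Vars1 was at 8.85 ± 0.057 and 8.59 ± 0.093, a difference of -0.26 ± 0.12 (adjusted p = 0.126). Of the 3 further probe sets of Eprs1, 2 rose and the other, of lower signal, differed by -0.25 ± 0.17 (adjusted p = 0.27), and the second of Lars1 differed by 0.30 ± 0.19 (adjusted p = 0.244), with overlapping groups in both. The largest change among the synthetases thus rested on a single probe set. In controls that probe set of Farsb had a lower mean than the second (8.43 against 9.15). It was the one of highest mean, and so was used, through its ischemic values (10.38) alone. With the mean of all probe sets of a gene the change of Farsb was 0.97 (adjusted p = 0.00228), and Lars1 (0.59, adjusted p = 0.0158) and Vars1 (0.40, adjusted p = 0.024) no longer passed the test. Of the other 3 probe sets of Cars1, a gene not past the test, 1 rose (0.82 ± 0.19, adjusted p = 0.00987).

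**Figure D3:**
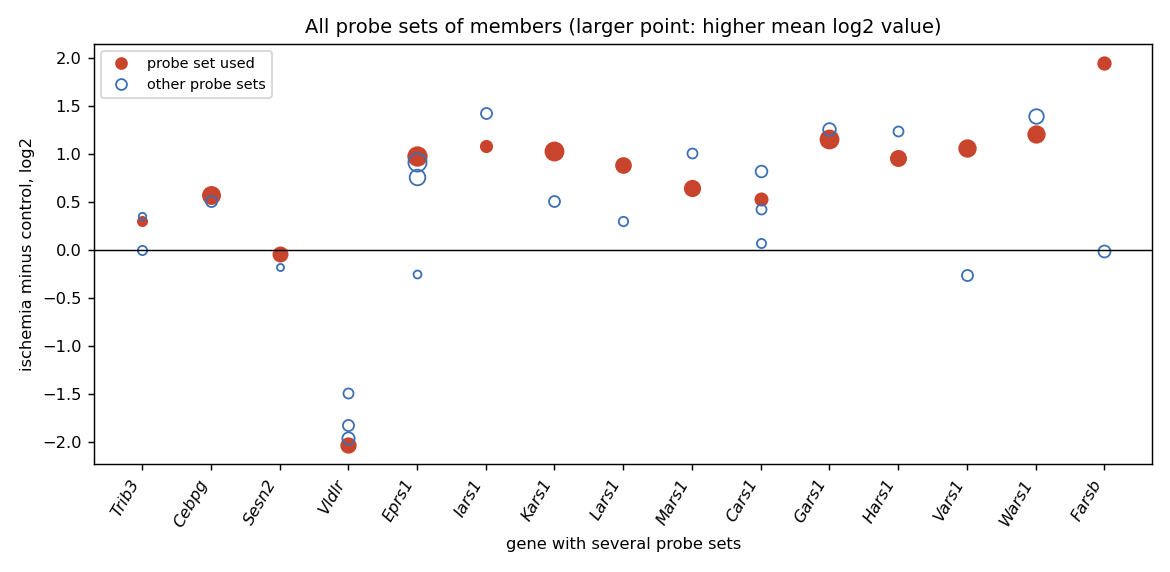
Difference between ischemia and control in log2 units for each probe set of the 15 genes of the set with several probe sets (red, the probe set used; blue, the others; larger points have a higher mean signal). Points of a gene lie close together in most genes, as in the 4 probe sets of Vldlr between -2.03 and -1.49, and far apart in Farsb (1.95 and -0.014), Vars1 (1.06 and -0.26) and Eprs1 (0.98 down to -0.25).

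The count of synthetases that rose depended on the scaling and on a rat. With the arrays centred on 43 ribosomal protein genes, which moved the median of all genes to -0.33, 4 synthetases passed the test (Farsb, Yars1, Rars1 and Tars1), and 18 of 19 were above 0 with Qars1 at -0.21. This step shifts all genes of an array alike, so the synthetase median is 0.96 above that of all genes with or without it. Without ischemic rat 65 the count was 11, and without control rat 63 it was 16.

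Stress response genes gave a mixed picture. Of the 15 genes 7 rose, 1 fell and 7 did not pass the test, against 16.8% of all genes rising and 5.99% falling. In 7 genes every ischemic rat was above every control and in 2 below, against 35.7% and 19.9% of all genes, and in the other 6 the groups overlapped. The median difference was 0.38 on the log2 scale and single genes ranged from -2.03 to 1.72. The genes that rose were Asns, Phgdh, Eif2s1, Psph, Chac1, Eif4ebp1 and Cebpg, and Vldlr fell.

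**Figure D4:**
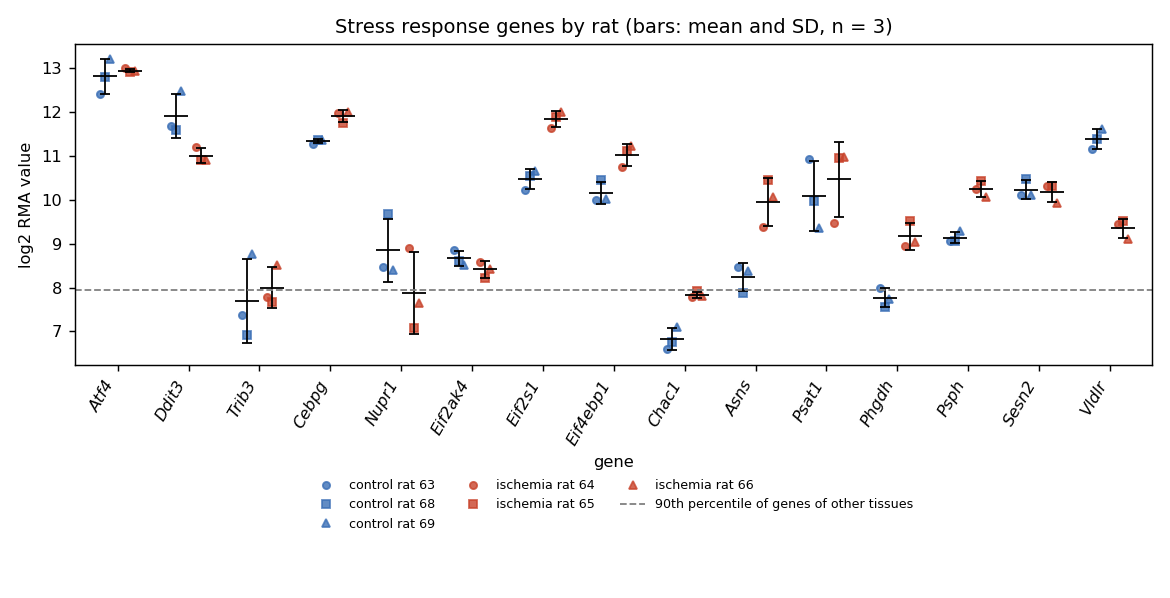
Log2 RMA value of the 15 stress response genes in each rat (blue, control rats 63, 68 and 69; red, ischemic rats 64, 65 and 66), with horizontal bars for group means and vertical bars for the SD (n = 3). Red points lie clear above blue ones in Eif2s1, Asns, Phgdh, Psph and Chac1 and clear below them in Vldlr, while they overlap in Atf4, Trib3, Nupr1, Eif2ak4, Psat1 and Sesn2; the dashed line marks 7.93, the 90th percentile of 28 genes of other tissues.

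Of the 5 regulators at the centre of the response, Cebpg alone passed the test. Atf4 measured 12.41, 12.80 and 13.22 in control rats 63, 68 and 69, and 12.99, 12.91 and 12.93 in ischemic rats 64, 65 and 66. The ischemic rats lay close together inside the range of the controls, and the difference of 0.13 ± 0.20 did not pass the test (adjusted p = 0.612). Its sign turned in 4 alternatives, to -0.30 with ribosomal centring, -0.018 with quantile normalization repeated, -0.040 with array weights and -0.063 without control rat 63. Ddit3, which encodes CHOP, a factor that promotes cell death under lasting stress, measured 11.67, 11.58 and 12.47 in controls and 11.19, 10.91 and 10.90 after ischemia. All 3 ischemic rats were below all 3 controls, but the difference of -0.91 ± 0.24 did not pass the test (adjusted p = 0.0178), although it did with ribosomal centring (-1.34, adjusted p = 0.00163), repeated quantile normalization (-1.06, adjusted p = 0.00847) and array weights (-1.14, adjusted p = 0.00229).

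Cebpg, a partner of ATF4 in dimers, stood at 11.33 ± 0.050 (SD, n = 3) in controls and at 11.91 ± 0.14 after ischemia. The groups did not overlap and the change of 0.57 ± 0.13 was just past the threshold (adjusted p = 0.0094). It was not past it whichever rat was left out (adjusted p = 0.0213 to 0.0421). In the limma fit over all probe sets of a single gene Cebpg missed the threshold (adjusted p = 0.0102), as did its second probe set (0.51 ± 0.17, adjusted p = 0.042). Of 5 further probe sets of stress response genes tested there, 0 rose and 3, all of Vldlr, fell, where 15% of all these probe sets rose and 6.06% fell. Trib3, a pseudokinase that ATF4 and CHOP induce and that restrains them, ranged from 6.93 to 8.77 in controls and from 7.66 to 8.52 after ischemia, and Nupr1, a small nuclear stress protein, from 8.39 to 9.68 and from 7.08 to 8.91. Both overlapped between groups and neither passed the test, with 0.30 ± 0.45 (adjusted p = 0.616) and -0.97 ± 0.49 (adjusted p = 0.148).

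The start of the pathway was represented by a kinase, a subunit of eIF2 and an inhibitor of translation. Eif2s1, the alpha subunit of eIF2 that the kinases phosphorylate, measured 10.22, 10.53 and 10.66 in controls and 11.63, 11.88 and 11.99 after ischemia. The lowest ischemic rat was nearly 1 log2 unit above the highest control, and the change of 1.36 ± 0.16 was 2.57-fold (adjusted p = 0.000876). Eif4ebp1, which holds back cap-dependent translation by binding eIF4E, rose from 10.16 ± 0.26 to 11.02 ± 0.25, by 0.86 ± 0.18 (adjusted p = 0.00761), a call lost without control rat 63 or 69 and without ischemic rat 65 or 66 (adjusted p = 0.027 to 0.0329). The call was also lost with no low-signal filter (adjusted p = 0.0127). Eif2ak4, the kinase GCN2 that senses uncharged tRNA, was at 8.66 ± 0.18 and 8.41 ± 0.19 (adjusted p = 0.224).

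Of the 4 enzymes of the set that make amino acids, Asns, Phgdh and Psph rose and Psat1 did not pass the test. Asns, which makes asparagine from aspartate and glutamine, measured 8.47, 7.88 and 8.37 in controls and 9.37, 10.45 and 10.06 after ischemia. Ischemic rat 64 was again the lowest of its group yet above every control, and the change of 1.72 ± 0.28 was 3.29-fold (adjusted p = 0.00261). It did not pass the test without control rat 68 (1.54, adjusted p = 0.0121).

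Phgdh, Psat1 and Psph encode the 3 steps of serine synthesis, in that order. Phgdh measured 7.99, 7.56 and 7.75 in controls and 8.94, 9.52 and 9.03 after ischemia, a change of 1.40 ± 0.19 (adjusted p = 0.00134). Psph measured 9.06, 9.07 and 9.29 and then 10.25, 10.43 and 10.05, a change of 1.10 ± 0.15 (adjusted p = 0.00119). In both the groups were well apart. Psat1 measured 10.94, 9.97 and 9.36 in controls and 9.48, 10.96 and 10.97 after ischemia. Control rat 63 was close to ischemic rats 65 and 66, ischemic rat 64 was close to control rat 69, and the difference of 0.38 ± 0.49 did not pass the test (adjusted p = 0.562).

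Of the remaining targets, Chac1, an enzyme that breaks down glutathione, rose from 6.83 ± 0.26 (SD, n = 3) to 7.84 ± 0.066, by 1.01 ± 0.16 (adjusted p = 0.00212). It was tested only because its ischemic values were above the low-signal filter. Both group means were below 7.93, the 90th percentile of genes of other tissues, a level lifted by Ttr, and above their median of 6.47. With no low-signal filter the adjusted p of Chac1 was 0.00376, and the call was lost without control rat 68 or ischemic rat 65. It was not tested with the 60th percentile filter, so that 6 stress response genes rose there. Sesn2, a leucine sensor that restrains mTORC1, was at 10.23 ± 0.21 and 10.18 ± 0.23, a difference of -0.046 ± 0.17 (adjusted p = 0.845).

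Vldlr, a receptor for lipoproteins and reelin, went the other way. Its values were 11.15, 11.39 and 11.61 in controls and 9.44, 9.51 and 9.11 after ischemia, so that every ischemic rat was more than 1 log2 unit below every control. It fell by 2.03 ± 0.17 (SE) on the log2 scale, 4.10-fold (adjusted p = 0.000273). Its other 3 probe sets fell too, by 1.96, 1.82 and 1.49. It had the largest change of the 34 genes in either direction, and it fell under every alternative apart from the fit without moderation, in which no gene was past the threshold.

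Over the 15 stress response genes the median deviations from the control mean were -0.16, -0.057 and 0.13 in control rats 63, 68 and 69 and 0.18, 0.41 and 0.83 in ischemic rats 64, 65 and 66. The median SD was 0.26 in controls and 0.21 after ischemia, where the synthetases had 0.17 and 0.14, a difference that was not tested. With ribosomal centring 2 genes were higher (Asns and Eif2s1) and 2 lower (Vldlr and Ddit3). Without control rat 68 or ischemic rat 65 the count of genes that rose was 4, and without control rat 63 it was 5.

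Other genes of the pathway divided along similar lines. Among 17 further genes for eIF2 kinases, eIF2 and eIF2B subunits, phosphatase regulators and related transcription factors, 7 rose, 0 fell and the other 10 missed the threshold (10 higher and 4 lower at an unadjusted p under 0.05), with a median of 0.44, where 16.8% of all genes tested rose and 5.99% fell. Eif2b3 rose by 1.30 ± 0.18 (adjusted p = 0.00143) and Eif2b1 by 1.14 ± 0.18 (adjusted p = 0.00212), both subunits of the factor that recharges eIF2 with GTP. Among transcription factors Atf5 rose by 1.18 ± 0.24 (adjusted p = 0.00639) and Cebpb by 1.08 ± 0.15 (adjusted p = 0.00155). The call for Atf5 was lost when any rat but ischemic rat 64 was left out (adjusted p = 0.0101 to 0.0231). It was also lost with no low-signal filter (adjusted p = 0.0126) and with ribosomal centring (0.0677). Atf5 was low in controls, at 7.26 ± 0.28 (SD, n = 3), near the filter of 7.16, and was not tested with the 60th percentile filter. Atf3 was high in both groups, at 13.37 ± 0.44 (SD, n = 3) in controls and 12.61 ± 0.14 after ischemia, and Impact, an inhibitor of GCN2 activation, was at 11.93 ± 0.34 and 11.33 ± 0.16. In both genes all ischemic rats were below all controls, and neither passed the test (adjusted p = 0.0246 and 0.0358), although both did with ribosomal centring, repeated quantile normalization and array weights. The difference of Impact depended on the probe set. It was -0.60 with the one used and -0.23 (adjusted p = 0.357) with the mean of its 4 probe sets.

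Other target genes of ATF4 were followed as a further list. Of 18 listed 17 were on the array, 12 were tested, 7 rose and 0 fell (8 and 1 at an unadjusted p under 0.05), with a median of 0.85, beside the same 16.8% and 5.99% over all genes. Mthfd1l, which makes formate, was at 5.91 ± 0.045 (SD, n = 3) in controls, below the median of 6.47 of genes of other tissues, and at 8.62 ± 0.57 after ischemia (2.71 ± 0.26, adjusted p = 0.000418). It passed the filter through its ischemic values alone, and with controls at background level the size of its change is not exact and was not ranked. Shmt2, which takes a carbon unit from serine, rose from 9.07 ± 0.30 to 11.39 ± 0.31 (2.31 ± 0.21, adjusted p = 0.000363). Aldh18a1, at the start of proline synthesis, rose from 8.46 ± 0.19 to 10.50 ± 0.25 (2.04 ± 0.17, adjusted p = 0.000272), and Xpot, which exports tRNA from the nucleus, by 1.31 ± 0.17 (adjusted p = 0.00119). Gdf15, a secreted stress factor, was at 12.06 ± 0.48 in controls and 10.99 ± 0.27 after ischemia, with all ischemic rats below all controls and an adjusted p of 0.0109. It passed the test in 9 alternatives, among them without control rat 63 (-1.34, adjusted p = 0.00466). Got1, an aspartate aminotransferase, was at 10.10 ± 0.32 and 10.44 ± 0.097 (adjusted p = 0.163).

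Amino acid transporters of the response were a further list. Of 10 on the array 8 were tested, 1 rose, 0 fell and the other 7 did not pass (4 higher and 1 lower at an unadjusted p under 0.05), with a median of 0.55. A count of 1 in 8 is near the 16.8% of all genes that rose. Slc1a5, which carries glutamine and other neutral amino acids, rose from 9.22 ± 0.25 (SD, n = 3) to 12.33 ± 0.33, by 3.10 ± 0.20 or 8.60-fold (adjusted p = 0.000104). Slc3a2, the heavy chain shared by several transporters, was at 11.46 ± 0.070 and 11.68 ± 0.058, and Slc38a2 at 11.36 ± 0.44 and 11.59 ± 0.13 (adjusted p = 0.169 and 0.421).

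**Figure D5:**
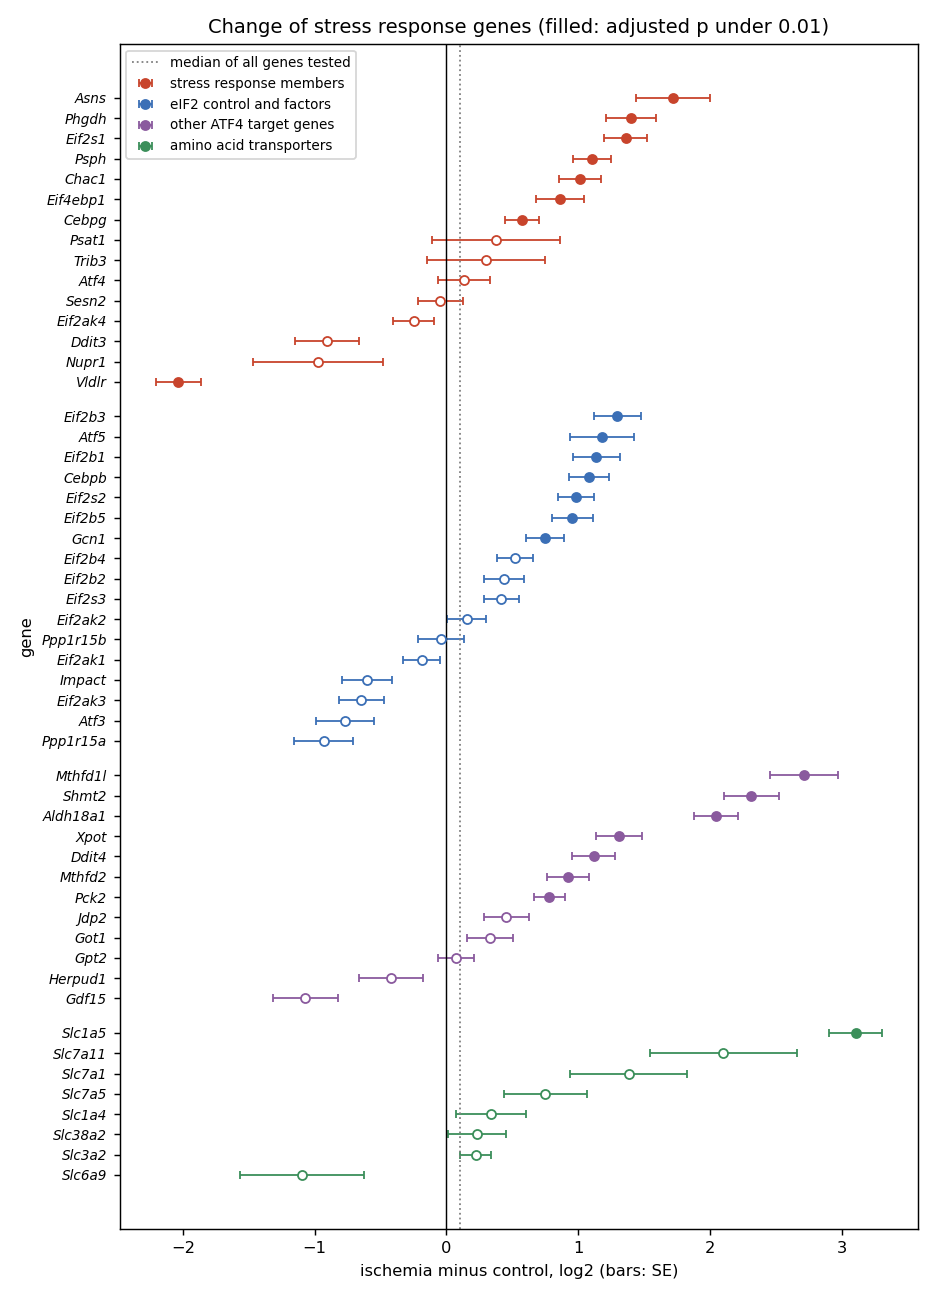
Difference between ischemia and control in log2 units (points) with its SE (bars) for the 15 stress response genes of the set (red), genes of eIF2 control and related factors (blue), other ATF4 target genes (purple) and amino acid transporters (green), with filled points where adjusted p was under 0.01. The values run from -2.03 in Vldlr to 3.10 in Slc1a5, with Atf4 at 0.13 close to the dotted line at 0.10, the median of all genes tested.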

How the data were processed

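RNA of CD11b+CD163+ cells from 3 control and 3 ischemic rats was amplified with a 3′ IVT kit for little RNA, with priming both at the poly-A tail and along the RNA per the labels, and read on an Affymetrix rat genome array. The deposited log2 values were made by the authors with RMA, which corrects background, quantile-normalizes and summarizes probes, and were used as they are; the submitters' notes name limma 3.18 and R 3.3.1. RMA makes arrays alike in distribution, so only changes relative to other genes are measured. Of 31099 probe sets, 57 were control sets and 20826 named 1 gene. A gene took its probe set of highest mean. Genes with at least 3 arrays above the 40th percentile (7.16) of values other than control sets were tested, 9928 in all. Ischemia and control were compared with lmFit and eBayes of limma 3.58.1 (R 4.3.3), two-sided, with Benjamini-Hochberg adjustment over these genes. The scripts were tested on simulated data. The labels say that each sample is a different rat, and the number of rats limits the precision: an exact permutation test of 3 against 3 cannot go below p = 0.1.

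The 34 genes and all lists were chosen with earlier results of these data known, so their counts are descriptions. Every gene of the set is named; values of every rat are given for the 5 stress response genes and the 5 synthetases of largest change past the test, for Atf4 and for up to 3 of highest mean not past it. From each further list up to 4 genes past the test, by size of change, and up to 2 not past it, by mean, are named. Alternatives covered the filter, the probe set, array scaling, moderation, weights, thresholds and leaving out each rat. The array annotation names no genome build; promoters were read from a RefSeq table of GRCr8. Microglia sorted in the study are not analysed here.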

Additional observations from a re-analysis of the deposited data

How the results depend on the processing

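No paired analysis was possible because control and ischemic rats carry different numbers. Of the 17 synthetases that rose, 4 were past the test with ribosomal centring, 0 without moderation (lowest adjusted p 0.0101; 19 at an unadjusted p under 0.05) and 0 with a log2 fold change beyond 2 as well; leaving out each rat gave 11 to 16. No synthetase fell under any alternative. Of the 7 stress response genes that rose, these gave 2, 0 and 0, and 4 to 6 without a rat. The count was 6 with no low-signal filter and 5 with repeated quantile normalization. The 1 that fell became 2 with ribosomal centring, repeated quantile normalization, array weights or adjusted p under 0.05. It became 0 without moderation and stayed 1 whichever rat was left out. Without moderation 9 of the 15 stress response genes had an unadjusted p under 0.05, counted in either direction. Over all genes the 1664 that rose became 390, 0, 2722 at adjusted p under 0.05 and 162 with the fold threshold, and 681 to 1564 without a rat; the 595 that fell became 1356, 0, 1377 and 58, with 929 after repeated quantile normalization and 1309 with array weights, and 166 to 816 without a rat. Genes that rose were 73.7% of those past the test, 22.3% with ribosomal centring, 60% with repeated quantile normalization and 64.5% with array weights. Signs turned in genes not past the test: with ribosomal centring in Atf4 (-0.30), Trib3 (-0.14), Psat1 (-0.060), Qars1 (-0.21), Got1 (-0.10), Slc3a2 (-0.22), Slc38a2 (-0.20) and Tars2 (-0.37); with repeated quantile normalization in Atf4 (-0.018) and Tars2 (-0.090); with array weights in Atf4 (-0.040), Trib3 (-0.20), Sesn2 (0.046) and Tars2 (-0.012); and with a rat left out in Atf4 (-0.063 to 0.34, below 0 without control rat 63), Trib3 (-0.081 to 0.84, below 0 without control rat 68), Sesn2 (-0.12 to 0.085, above 0 without control rat 68 or ischemic rat 66) and Tars2 (-0.0086 to 0.12, below 0 without control rat 63 or ischemic rat 64). Gdf15 was past the test with the 60th percentile filter, the low-variability filter, median centring, repeated quantile normalization, array weights, adjusted p under 0.05, and without control rat 63 or ischemic rat 64, besides ribosomal centring. Mars1 was not past it whichever rat was left out (adjusted p 0.012 to 0.038) or with repeated quantile normalization (0.0212). The cause was not tested, apart from thresholds and smaller samples. Median centring and robust moderation changed no call in the 34 genes; the 60th percentile filter left Chac1, Trib3 and Nupr1 untested, and Chac1 was thus not called.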
